A study of Mus musculus with 48 samples.

Results

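The 8 genes of the urea cycle described here are the enzymes Nags, Cps1, Otc, Ass1, Asl and Arg1 and the mitochondrial transporters Slc25a15 and Slc25a13. They were chosen by name, and each symbol matched a single gene among the 46517 mouse genes of the count table. The genes were followed in 16 bulk RNA samples: 5 explants, 3 naïve irises, 3 livers, 3 preparations of hepatocytes and 2 samples of spheroids kept in vitro, each sequenced as 3 technical libraries that were summed. The study asked how far liver spheroids placed in the anterior chamber of the eye (ACE) keep the features of liver cells. All mice are labelled wild type albino C57BL/6N, and the labels name no drug or diet. By the paper's methods the mouse spheroids were formed and kept in media with dexamethasone and insulin. Spheroids therefore differ from livers and hepatocytes in this exposure too, and its part in the results was not tested. The explants were taken 2 months after transplantation and carry the replicate numbers 1, 2, 4, 5 and 6. Each explant is engrafted spheroid together with the iris around it, so its RNA mixes graft and recipient tissue. The hepatocytes came from perfused donor livers and are an enriched fraction rather than a pure cell type. The spheroids were formed from such cells in wells, with their age at sampling not given. The labels do not say which samples share an animal, so the p-values measure the spread between these samples.

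The urea cycle disposes of the ammonia released by amino acid breakdown and runs in full in hepatocytes, mostly those near the portal vein. Nags makes N-acetylglutamate, the activator that Cps1 needs to fix ammonia as carbamoyl phosphate in the mitochondrion, and Otc joins that product to ornithine to give citrulline. In the cytosol Ass1 adds aspartate to citrulline, Asl splits the product into arginine and fumarate, and Arg1 releases urea and returns ornithine. Slc25a15 carries ornithine into the mitochondrion in exchange for citrulline, and Slc25a13 (citrin) brings out aspartate. Outside the liver, Ass1 and Asl also serve the recycling of citrulline to arginine in many cell types.

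In the GRCm38 annotation used for counting, Nags (ENSMUSG00000048217) lies on the plus strand of chromosome 11 at 102145513 to 102149477, Cps1 (ENSMUSG00000025991) on the plus strand of chromosome 1 at 67123026 to 67231259, and Otc (ENSMUSG00000031173) on the plus strand of chromosome X at 10252305 to 10321024. Ass1 (ENSMUSG00000076441) lies on the plus strand of chromosome 2 at 31470207 to 31520672, Asl (ENSMUSG00000025533) on the minus strand of chromosome 5 at 130011258 to 130029247, and Arg1 (ENSMUSG00000019987) on the minus strand of chromosome 10 at 24915208 to 24927470. Slc25a15 (ENSMUSG00000031482) lies on the minus strand of chromosome 8 at 22375554 to 22398621, and Slc25a13 (ENSMUSG00000015112) on the minus strand of chromosome 6 at 6041218 to 6217173. Nags shares 443 of its 2838 exonic bases with Gm11586 on the opposite strand. Reads were counted without strand and for each gene they touched, so the reads of this stretch cannot be assigned to either gene. None of the other 7 genes shares an exonic base with another annotated gene.

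The promoters of the genes whose level was lower in spheroids kept in vitro than in hepatocytes are shown here, since these 5 genes moved in the same direction in that comparison. The sequences are the bases just before the annotated start, read 5′ to 3′ on the gene's strand, from RefSeq on GRCm38.p6. The table held 5 of the 8 genes, and Cps1, Asl and Arg1 had no entry. Capitals mark matches on either strand to a CCAAT box (CCAAT), a GC box (GGGCGG), a C/EBP motif (TTNNGNAA) or an HNF4 motif (AAAGTNCA).
Otc, chrX:10252055-10252304, plus strand: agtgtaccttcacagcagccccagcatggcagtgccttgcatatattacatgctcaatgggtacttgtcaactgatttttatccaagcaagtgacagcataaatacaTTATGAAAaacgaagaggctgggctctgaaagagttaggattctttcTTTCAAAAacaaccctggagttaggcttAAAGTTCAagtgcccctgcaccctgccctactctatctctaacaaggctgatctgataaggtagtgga
Nags, chr11:102145263-102145512, plus strand: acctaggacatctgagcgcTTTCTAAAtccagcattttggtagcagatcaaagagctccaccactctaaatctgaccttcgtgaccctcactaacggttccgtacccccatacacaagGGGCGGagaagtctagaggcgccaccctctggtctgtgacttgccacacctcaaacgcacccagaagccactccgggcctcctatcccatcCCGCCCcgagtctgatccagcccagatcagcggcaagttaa
Ass1, chr2:31470020-31470206, plus strand: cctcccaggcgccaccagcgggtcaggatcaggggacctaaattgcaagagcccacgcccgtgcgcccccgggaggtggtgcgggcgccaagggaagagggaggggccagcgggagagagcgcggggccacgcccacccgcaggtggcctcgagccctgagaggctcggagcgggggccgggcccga
Slc25a13, chr6:6217174-6217423, minus strand: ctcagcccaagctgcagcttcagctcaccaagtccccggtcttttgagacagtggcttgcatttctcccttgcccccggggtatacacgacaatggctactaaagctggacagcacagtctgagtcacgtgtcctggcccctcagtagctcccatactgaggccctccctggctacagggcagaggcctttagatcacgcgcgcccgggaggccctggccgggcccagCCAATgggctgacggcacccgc
Slc25a15, chr8:22398622-22398871, minus strand: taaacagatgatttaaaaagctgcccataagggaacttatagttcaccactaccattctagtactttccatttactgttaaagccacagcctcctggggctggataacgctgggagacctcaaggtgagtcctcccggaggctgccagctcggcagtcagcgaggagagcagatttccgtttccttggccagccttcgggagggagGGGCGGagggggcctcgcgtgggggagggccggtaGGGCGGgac

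The Otc window was the only one of the 5 with an HNF4 match, which 3.53% of 32851 promoter windows of 250 bases hold. Otc also had a pair of C/EBP matches and Nags had a single one, against 36.8% of all windows. GC boxes were found before Nags and Slc25a15 (32.7% of windows) and a CCAAT box before Slc25a13 (33.8% of windows). The Ass1 window, 187 bases after removal of the part inside the counted gene, held none of these motifs and had 75.4% G and C, against 43.6% before Otc. TATAAA (12.4% of windows), GTTAATNAT (0.737%) and TGACGTCA (1.55%) were also searched and were found before none of the 5 genes. A match is a description of letters and not evidence of binding.

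Levels are given as TPM, transcript abundances scaled to gene length and library total, which can be compared between genes. Tests of explant against iris and among iris, liver, hepatocytes and spheroids were run on counts with edgeR's quasi-likelihood test. A gene was called where the Benjamini-Hochberg adjusted p was under 0.05 and the log2 difference was beyond 1 in either direction. Summed counts per sample ranged from 2718518 in a hepatocyte sample to 6789648 in an explant. All 8 hepatocyte markers checked were at or above 1 TPM on average in each of the 5 groups. Their summed level was 1345 to 1600.0 TPM in irises, 4434 to 6018 TPM in explants and 10177 to 10783 TPM in livers, so naïve iris held transcripts of Alb and other secreted liver proteins. The iris markers summed to 4467 to 4686 TPM in irises, 3221 to 4076 TPM in explants and 172 to 179 TPM in livers. Liver 1 stood apart from the other livers, with 764 TPM of macrophage markers and 1011 TPM of stellate cell and fibroblast markers against at most 376 and 457 TPM.

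In liver and in hepatocytes the mitochondrial enzymes Cps1 and Otc were abundant, and Nags was the least abundant of the 8 genes. Cps1 was at 1531, 883 and 1073 TPM in livers 1 to 3 and at 1313, 1020.5 and 1516 TPM in the hepatocytes. Otc was at 406, 323 and 384 TPM in the livers and at 454, 423 and 514 TPM in the hepatocytes, without overlap. Nags was at 54.7, 49.9 and 54.1 TPM in the livers and at 39, 47 and 52.6 TPM in the hepatocytes. Among the livers the spread was wide for Cps1 and narrow for Nags, with coefficients of variation of 28.6% and 5.03%. Among the hepatocytes these were 19.4% and 14.8%.

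Among the cytosolic enzymes Arg1 had the highest level of all 8 genes, at 1904, 1613 and 1512 TPM in the livers and 1761, 1055 and 1709 TPM in the hepatocytes. Ass1 was at 751, 509 and 505 TPM in the livers and 627, 500 and 719 TPM in the hepatocytes. Asl was at 549, 329.9 and 358 TPM in the livers and 408, 228 and 312 TPM in the hepatocytes. Liver 1 had the highest value of Cps1, Otc, Ass1, Asl and Arg1 among the livers, and also of Nags and Slc25a15. The transporter Slc25a15 was at 394, 297 and 268 TPM in the livers and 322, 290.3 and 314 TPM in the hepatocytes. Slc25a13 was at 231, 195 and 239 TPM in the livers and 232, 228 and 188 TPM in the hepatocytes. The values of Nags, Cps1, Ass1, Asl, Arg1 and both transporters overlapped between livers and hepatocytes.

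None of the 8 genes was called between hepatocytes and liver by edgeR, and DESeq2 and limma-voom also called 0, where 2.72% of the 12236 genes tested were called in either direction. A single gene, Otc, had an unadjusted p under 0.05, with a log2 difference of 0.47 ± 0.14 (SE, n = 3 and 3) and an adjusted p of 0.0917 by edgeR. The differences of the other 7 genes lay between -0.24 for Asl and 0.30 for Cps1, and their 95% intervals reached from -0.79 to 0.80 at the widest. The signs of the small differences of Slc25a15 (0.09) and Slc25a13 (0.10) turned when counts were scaled by library size alone.

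**Figure D1:**
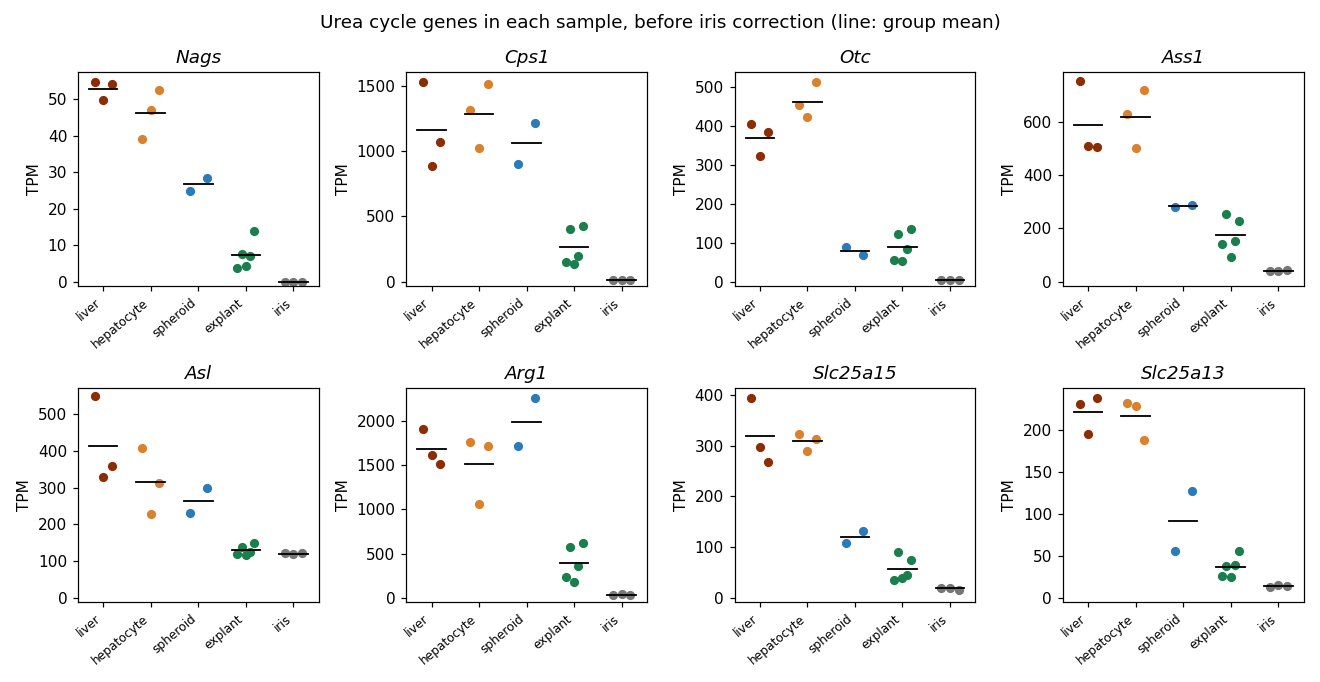
TPM of each of the 8 urea cycle genes (one panel per gene, vertical axis in TPM from 0) in every liver, hepatocyte, spheroid, explant and iris sample, before any iris correction, with a line at the group mean. In the Otc panel both spheroid samples (90.2 and 68.7 TPM) sit below all livers and hepatocytes, and in the Asl panel the explants sit beside the irises.

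Naïve iris held 7 of the 8 genes, at levels from 1.15% to 29.2% of liver, while Nags had 0 counts in all 3 irises. Asl was at 122, 119 and 121 TPM in irises 1 to 3, the highest of the 8 genes there. Ass1 was at 41.3, 39.6 and 42.5 TPM, and Arg1 at 30.5, 43.9 and 37 TPM. Asl and Ass1, the pair of enzymes that make arginine from citrulline, thus showed the smallest spread across irises, with coefficients of variation of 1.57% and 3.48%. Slc25a15 was at 20.5, 20.1 and 16.5 TPM, Slc25a13 at 13, 15 and 14.1 TPM, Cps1 at 10.6, 14.7 and 14.9 TPM, and Otc at 3.68, 5.30 and 4.72 TPM.

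All 8 genes were lower in iris than in liver by edgeR, where 22.1% of the 15459 genes tested were called lower. The fitted log2 difference was -2.65 ± 0.16 (SE, n = 3 and 3) for Asl, with an adjusted p of 8.85e-07. It lay between -4.72 and -4.95 for Ass1 and the transporters, and was -6.38 for Arg1, -7.22 for Otc and -7.32 for Cps1. Nags was at least 93.9-fold lower in iris, against a floor of 3 counts per sample. Scaling by library size alone moved the median of all genes in this comparison from 0.11 to 0.80 on the log2 scale, and the 8 genes stayed called lower.

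The position of each gene between iris and liver differed. As a background for liver transcripts in iris, 20 hepatocyte reference genes of the coagulation, complement and plasma protein groups stood at a median of 1.23% of liver in iris, with a range from 0.601% to 7.73%. Cps1 at 1.15%, Otc at 1.23% and Arg1 at 2.22% lay near that median. Slc25a15 at 5.96%, Slc25a13 at 6.33% and Ass1 at 6.99% lay in the upper part of the range, and Asl at 29.2% lay above it. Transcripts of iris markers were likewise found in liver, where 5 of the 8 were at or above 1 TPM on average. Tyrp1, the highest of them in iris at 1946 TPM, was at 81.6 TPM in liver. Whether the transcripts of the reference genes and of the urea cycle genes in iris are the tissue's own was not tested.

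**Figure D2:**
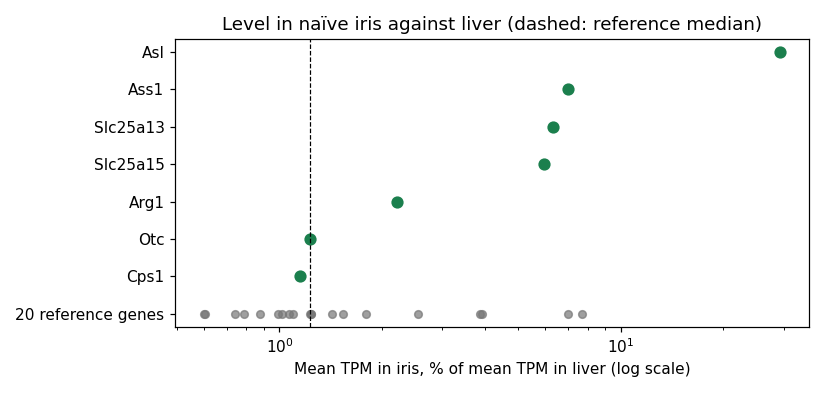
Mean TPM in naïve iris as a percentage of mean TPM in liver on a log axis, with a green point for each urea cycle gene that had counts in iris and grey points for 20 hepatocyte reference genes. The dashed line is the reference median of 1.23%, and Asl, at 29.2%, lies to the right of every reference gene.

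Explants held all 8 genes at levels between iris and liver, apart from Asl. Cps1 was at 151, 401, 139, 198 and 423 TPM in explants 1, 2, 4, 5 and 6, and Otc at 55.1, 122, 53.6, 82.8 and 136 TPM. Nags was at 3.64, 7.57, 4.3, 7.09 and 13.8 TPM, resting on 19, 42, 25, 47 and 82 counts. Explants 2 and 6 were the highest for Cps1, Otc and Nags, explants 1 and 4 the lowest, and no explant overlapped with iris.

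The cytosolic enzymes followed the same order of explants, with Ass1 at 143, 255, 92.2, 152 and 226 TPM and Arg1 at 232, 577, 183, 355 and 617 TPM. Asl was at 121, 139.7, 116, 124 and 148 TPM, with explants 1 and 4 inside or below the range of the irises. Slc25a15 was at 34.5, 90.4, 39.2, 44.3 and 74.4 TPM and Slc25a13 at 26.4, 37.9, 24.8, 39.2 and 55.4 TPM. Both transporters were above iris in every explant and below liver in every explant. The ratio of the highest to the lowest explant was 3.79 for Nags, 3.37 for Arg1 and 3.04 for Cps1, and 1.28 for Asl.

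In the test of explants against irises 7 of the 8 genes were higher, where 6.16% of the 16764 genes tested were called higher. Cps1 and Otc both rose by 4.43 on the log2 scale (SE 0.54 and 0.47, n = 5 and 3), with adjusted p of 0.00106 and 0.000558 by edgeR. Arg1 rose by 3.54 ± 0.51, Ass1 by 2.20 ± 0.35, Slc25a15 by 1.69 ± 0.38 and Slc25a13 by 1.51 ± 0.31, with adjusted p from 0.00253 to 0.0193 by edgeR. Nags was at least 11.4-fold higher than the floor of 3 counts per iris sample. Asl differed by 0.21 ± 0.12, with a 95% interval from -0.07 to 0.49 and an adjusted p of 0.302 by edgeR. The calls of Slc25a15 and Slc25a13 were lost when any of the 3 irises was left out and by limma-voom (adjusted p 0.0729 and 0.0525), which left 5 genes called. With technical library a alone Nags did not pass the filter on low counts, and the other 6 stayed called. In bulk samples such as these, fewer liver cells and less RNA per liver cell cannot be told apart.

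Genes of the wider pathway were tested in the same fit. Of 11 genes of ammonia and glutamine handling 4 were higher in explants than in iris, led by the glycerol and urea channel Aqp9 (79.9 against 3.36 CPM, counts scaled to the library total) and the mitochondrial carbonic anhydrase Car5a (10.5 against 0.916), which supplies bicarbonate to Cps1. Of 11 tested genes of arginine and ornithine metabolism 2 were higher, Agmat and Gamt, and of 9 tested regulators 4 were higher, among them the glucagon receptor Gcgr and the nuclear receptor Hnf4a, both known for control of urea cycle genes. Of 6 genes of aspartate and fumarate handling 0 were called by edgeR, DESeq2 or limma-voom, with 2 at an unadjusted p under 0.05 by edgeR and a median log2 difference of -0.09. The median log2 difference of the 8 members was 2.87 and that of the 20 reference genes 4.35, beside 0.01 over all genes tested.

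Spheroids kept in vitro held low Otc beside abundant Cps1 and Arg1. Otc was at 90.2 and 68.7 TPM in spheroids 1 and 2, 17.1% of its mean in hepatocytes. Cps1 was at 900.3 and 1216 TPM and Nags at 24.9 and 28.4 TPM. Arg1 was at 1713 and 2254 TPM, Ass1 at 279 and 286 TPM, and Asl at 229.7 and 300.4 TPM. Slc25a15 was at 109 and 132 TPM. The spheroids disagreed on Slc25a13, at 55.8 and 127 TPM, although both values were below every hepatocyte sample and every liver.

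Against hepatocytes 5 of the 8 genes were lower in spheroids, where 9.11% of the 12247 genes tested were called lower. Otc fell by 2.89 ± 0.23 on the log2 scale (SE, n = 2 and 3), a 7.41-fold difference, with an adjusted p of 0.000316 by edgeR. Slc25a15 fell by 1.67 ± 0.22 and Slc25a13 by 1.53 ± 0.38, with adjusted p of 0.00206 and 0.0230 by edgeR. Ass1 fell by 1.45 ± 0.24 and Nags by 1.12 ± 0.23, with adjusted p of 0.00534 and 0.0115 by edgeR. Cps1 at -0.59 (95% interval -1.32 to 0.13), Asl at -0.57 (-1.27 to 0.14) and Arg1 at 0.08 (-0.63 to 0.79) were not called and overlapped with the hepatocytes. Leaving out spheroid 1 or hepatocyte sample 3 removed the calls of Nags and Slc25a13 and left 3 genes, Otc, Ass1 and Slc25a15. With a sample left out the difference of Slc25a13 ranged from -2.40 to -0.98, the latter without spheroid 1. The Nags call was also lost when counts were scaled by library size alone, at -0.87, where the median of all genes moved from 0.01 to 0.27.

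Against liver the same 5 genes were lower, where 11% of the 12959 genes tested were called lower. This comparison shares the spheroid samples with the preceding one. Otc fell by 2.35 ± 0.20 on the log2 scale (SE, n = 2 and 3), Slc25a15 by 1.51 ± 0.23, Slc25a13 by 1.37 ± 0.36, Ass1 by 1.17 ± 0.22 and Nags by 1.11 ± 0.20, with adjusted p from 0.000456 to 0.0239 by edgeR. Asl was below all livers in both spheroids, with a difference of -0.74 ± 0.27 and an adjusted p of 0.0675 by edgeR. Without spheroid 1 the calls were again those of Otc, Ass1 and Slc25a15. The difference of Slc25a13 was -0.84 without spheroid 1 and -2.25 without spheroid 2, and its call was also lost without liver 2 or liver 3 (adjusted p 0.0624 and 0.0582 by edgeR). Without spheroid 2 Asl was called, at -1.09 with an adjusted p of 0.0424 by edgeR.

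**Figure D3:**
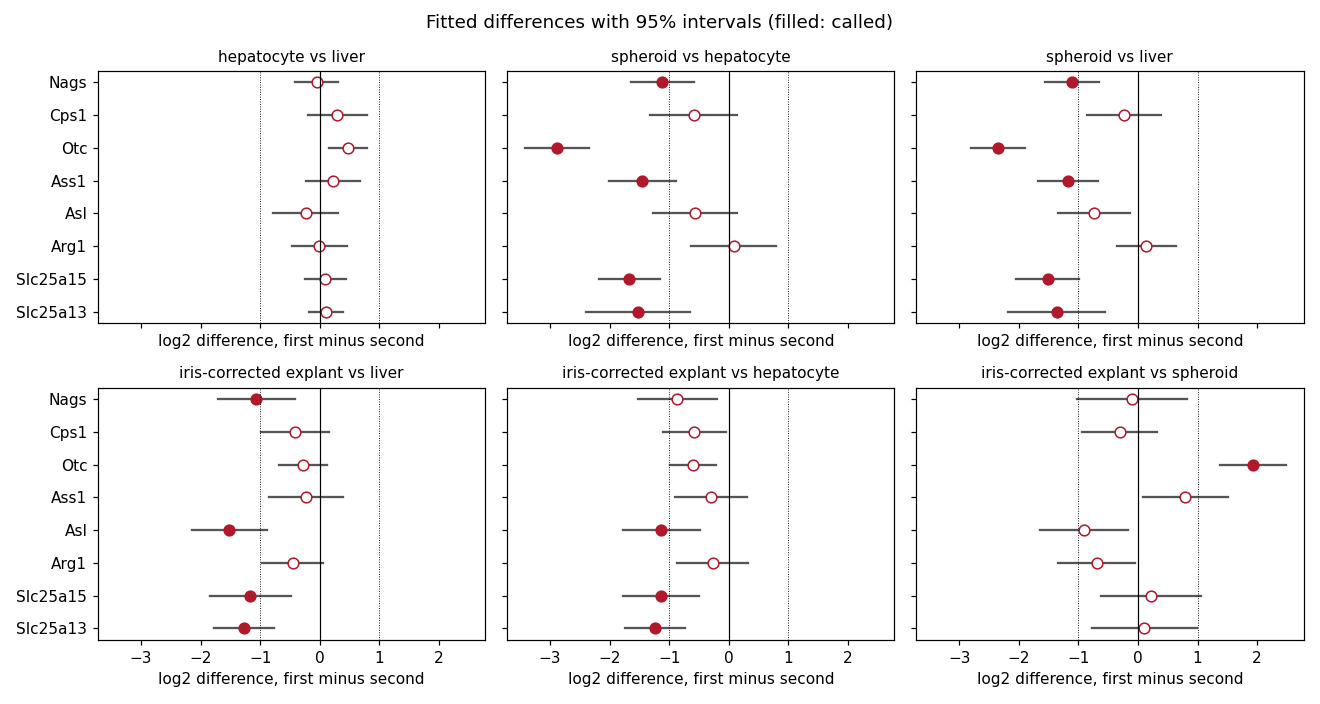
Fitted log2 difference (first group minus second) of the 8 genes in 6 comparisons, with 95% intervals as bars, filled points for called genes and dotted lines at a log2 difference of 1 in each direction. Otc has the lowest point of the spheroid panels, at -2.89 against hepatocytes, and is the filled point at 1.93 for corrected explants against spheroids.

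The neighbouring pathway also differed in spheroids. Of 10 tested genes of ammonia and glutamine handling 6 were lower than in hepatocytes and 1 was higher. The glutamate transporter Slc1a2 was at 3.26 against 308 CPM, the liver glutaminase Gls2, which supplies ammonia to Cps1, at 14 against 152, and Car5a at 11.4 against 169. Of 11 tested genes of arginine and ornithine metabolism 3 were lower, among them the ornithine aminotransferase Oat at 41 against 823 CPM. The pair that rose comprised the arginine transporter Slc7a1 and Aldh18a1, which makes the precursor of ornithine and proline. Of 6 genes of aspartate and fumarate handling 0 were called by edgeR, DESeq2 or limma-voom, with 4 at an unadjusted p under 0.05 by edgeR.

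Of 10 regulators 4 were lower, with the factor Cebpa, known for its role in Cps1 and other urea cycle promoters, falling by 2.70 ± 0.26 on the log2 scale (SE, n = 2 and 3, adjusted p 0.000668 by edgeR). Klf15 and Ppara were also among the regulators called lower. Hnf4a was at 399 and 398 CPM in spheroids and hepatocytes and was not called. The 8 members had a median difference of -1.29 and the 20 reference genes of -0.79, beside 0.01 over all genes tested. Summed markers of other cells also differed. The 8 macrophage markers summed to 414 to 555 TPM in spheroids and 103 to 177 TPM in hepatocytes. Of these, 7 were tested and 3 were called higher. The 6 stellate cell and fibroblast markers summed to 279 to 304 TPM and 112 to 160 TPM. Most of that sum was Dcn, at a mean of 283 against 124 TPM, and 0 of the 4 tested were called. Col1a1 was lower in spheroids, at 1.55 against 2.19 TPM. The 8 hepatocyte markers summed to 9931 to 10559 TPM in spheroids and 10517 to 12570 TPM in hepatocytes. Among them C9 alone was called, lower at 48.7 against 610 TPM. The part of these other cells in the result was not tested.

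The composition of the urea cycle transcripts also differed between groups. The 8 genes summed to 4804 ± 886 TPM in liver (SD, n = 3), 4758 ± 841 TPM in hepatocytes (n = 3), 3907 ± 715 TPM in spheroids (n = 2) and 249.8 ± 7.75 TPM in iris (n = 3). Arg1 made up 35.2% of the sum in liver, 31.4% in hepatocytes and 50.7% in spheroids. Otc made up 7.80%, 9.87% and 2.10%, and Ass1 12.2%, 12.9% and 7.35%, in the same order. In iris Asl alone made up 48.3% of the sum. These shares are given as a description.

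**Figure D4:**
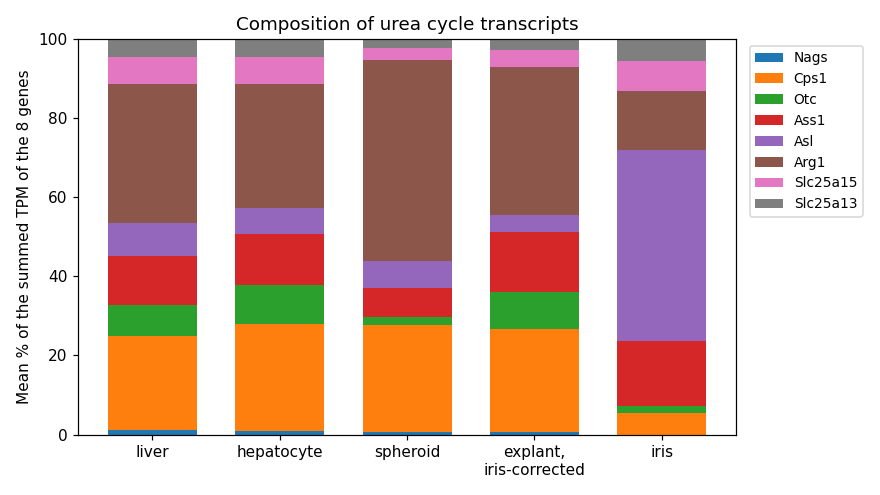
Mean share of each of the 8 genes in their summed TPM, as stacked bars from 0 to 100%, in liver, hepatocytes, spheroids, iris-corrected explants and iris. Arg1 takes 50.7% of the spheroid bar and Asl takes 48.3% of the iris bar.

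For comparison with liver, the iris contribution was subtracted from the TPM of each explant by the formula of the study's methods. The mean of the irises was weighted by an iris share of each explant, which the paper calculated with CIBERSORT from signatures of iris and liver. The shares were solved from the deposited TPM before and after correction and rounded to whole percents. For explant 4 the formula of its own deposited column was used in solving. These shares were 82%, 68%, 81%, 72% and 59% in explants 1, 2, 4, 5 and 6. Explants 2 and 6, which had the highest levels of most of the 8 genes, thus also had the lowest iris shares. The deposited column of explant 4 subtracted the iris mean less the share instead of their product, so the values were recalculated with the formula used for the other 4 explants. Negative values after the subtraction were counted as no transcripts. Corrected TPM have no counts behind them and were tested by limma on log2(TPM + 1), a scale that understates the difference of a gene with few transcripts.

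After correction Otc was at 285, 370.3, 263, 284 and 325 TPM in explants 1, 2, 4, 5 and 6. Cps1 was at 779, 1224, 674, 672 and 1012 TPM and Nags at 20.2, 23.7, 22.6, 25.3 and 33.7 TPM. Otc and Cps1 overlapped with the livers, whereas each explant was below each liver for Nags.

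Ass1 was at 607, 711, 309.8, 437 and 493 TPM and Arg1 at 1119.6, 1725, 807, 1174 and 1452 TPM after correction. Asl was at 122, 180.2, 97.2, 132 and 188 TPM. The values of Asl are what remained of raw levels that in explants 1 and 4 were close to those of iris. Slc25a15 was at 105, 242, 125, 109 and 154 TPM and Slc25a13 at 82.7, 88.5, 70.7, 104 and 115 TPM. Asl and both transporters were below every liver in all 5 explants, while Ass1 and Arg1 overlapped with the livers. The ratio of the highest to the lowest explant fell from 2.54 to 1.41 for Otc with the correction and from 3.79 to 1.66 for Nags, but rose from 1.28 to 1.94 for Asl.

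**Figure D5:**
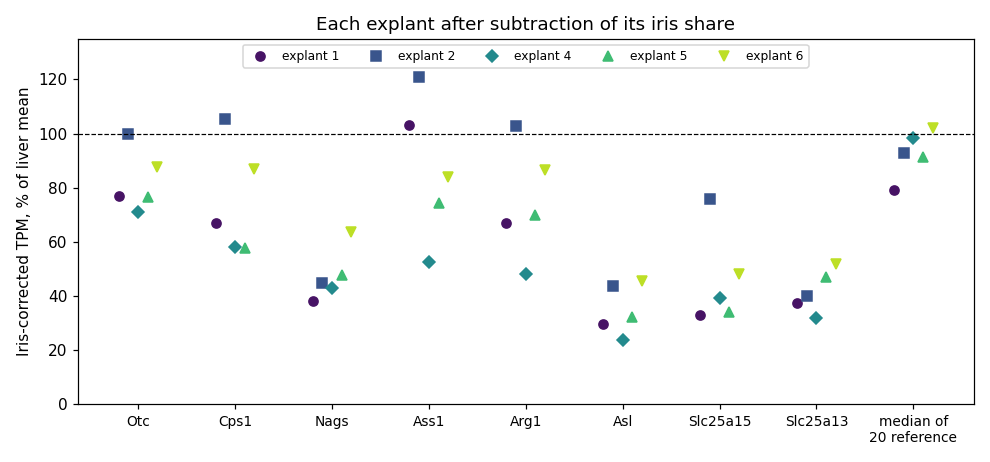
Iris-corrected TPM of each gene in each of the 5 explants as a percentage of the liver mean (dashed line at 100%), with the median of 20 hepatocyte reference genes at the right. Every explant is under 52% of liver for Asl and Slc25a13, while the reference medians run from 79.0% to 101.9%.

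Against liver 4 of the 8 genes were lower in corrected explants, where 2.82% of the 22878 genes tested were called lower. Asl was lower by 1.52 ± 0.28 on the log2 scale (SE, n = 5 and 3), Slc25a13 by 1.27 ± 0.22, Slc25a15 by 1.17 ± 0.30 and Nags by 1.07 ± 0.29, with adjusted p of 0.00854, 0.00741, 0.0326 and 0.0380 by limma. Cps1 at -0.42 (95% interval -0.99 to 0.15), Otc at -0.28 (-0.68 to 0.11), Ass1 at -0.23 (-0.86 to 0.39) and Arg1 at -0.46 (-0.97 to 0.06) were not called. As a share of the liver mean, the corrected mean was 34.9% for Asl, 41.6% for Slc25a13, 46% for Slc25a15 and 47.5% for Nags, and from 74.9% to 87.0% for the other 4 genes. The 20 reference genes had a median of 91.4% and a range from 41.2% to 200.4%. The iris shares came from a fit with a liver signature. Corrected levels near those of liver, for reference genes and members, are therefore not independent of that fit.

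The calls depended on single samples and on the correction. The count was 1 without liver 3 (Asl), 2 without liver 1, liver 2, explant 1 or explant 5 (Asl and Slc25a13), 2 with iris shares estimated by non-negative least squares, and 1 (Slc25a13) with the values as deposited, in which Asl is listed at 0 in explant 4. It was 3 without explant 2 or after scaling to the reference genes, where the call of Nags was lost (adjusted p 0.0564 and 0.0535 by limma), and 3 without explant 4, where that of Slc25a15 was lost. The median difference of the 8 genes was -0.76, beside 0.59 over all genes tested, since these values are not centered on the median gene. Macrophage markers summed to 805 to 2048 TPM in the uncorrected explants, above the 544 to 584 TPM of iris in every explant and above the 301 to 764 TPM of liver, and their part in the result was not tested.

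Against hepatocytes 3 genes were lower in corrected explants, where 3.05% of the 22612 genes tested were called lower. Slc25a13 was lower by 1.24 ± 0.22 on the log2 scale (SE, n = 5 and 3), Slc25a15 by 1.13 ± 0.28 and Asl by 1.13 ± 0.29, with adjusted p of 0.00542, 0.0236 and 0.0244 by limma. Otc was below every hepatocyte sample in all 5 explants, with a difference of -0.61 ± 0.17 and an adjusted p of 0.0367 by limma, which passed the test but not the fold limit. Only the call of Slc25a13 was kept without hepatocyte sample 1 or 3, with the values as deposited, or after scaling to the reference genes. This comparison shares the explants with the one against liver.

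Against spheroids, Otc was the only gene of the 8 that was called, and it was higher, where 4.37% of the 22706 genes tested were called higher. All 5 corrected explants, at 263 to 370.3 TPM, were above both spheroid samples, with a difference of 1.93 ± 0.24 on the log2 scale (SE, n = 5 and 2) and an adjusted p of 0.00490 by limma. Ass1 was also above both spheroids in each explant, with a difference of 0.80 ± 0.31 and an adjusted p of 0.232 by limma. Asl, at -0.91 ± 0.32, was below both spheroids in each explant, with an adjusted p of 0.182 by limma. Nags at -0.10 (95% interval -1.02 to 0.82), Cps1 at -0.30 (-0.93 to 0.33) and Arg1 at -0.69 (-1.34 to -0.04) were not called. Slc25a15 at 0.22 and Slc25a13 at 0.11 were not called either, and the sign of both turned after scaling to the reference genes or without iris correction. Before correction Otc differed from spheroids by 0.08, so its difference rests on the iris shares. After scaling to the reference genes, which moved the median of all genes from 0.55 to -0.03, Otc stayed called higher and Asl and Arg1 were called lower.

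The wider pathway in corrected explants held several genes that were low against liver. Of 11 genes of ammonia and glutamine handling 3 were lower, Slc1a2 (0.0582 against 46.6 TPM), Car5a (74.0 against 299.8 TPM) and the glutamine transporter Slc38a3 (210.2 against 643 TPM). The value of Slc1a2 lies near the floor of the subtraction, where negative values were counted as no transcripts. Of 13 genes of arginine and ornithine metabolism 1 was called, Aldh18a1, which was higher at 25 against 2.65 TPM. Of 10 regulators 4 were lower, with Cebpa at 47.5 against 193 TPM and Ppara at 28.8 against 123 TPM, followed by Klf15 and the glucocorticoid receptor Nr3c1. Oat was at 489.9 TPM in corrected explants and 49.8 TPM in spheroids, a difference of 3.04 ± 0.62 on the log2 scale (SE, n = 5 and 2, adjusted p 0.0301 by limma), and Gatm, of creatine synthesis, was the other gene of that list called higher. Among the 10 regulators Gcgr alone was called against spheroids, and it was lower in corrected explants.

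Removal of duplicate reads can limit counts, and a limit of 2 read starts per base was assumed. Whether it applies to these libraries was not tested. Among the 8 genes Arg1 and Cps1 came closest to it. Arg1 reached 0.988 and Cps1 0.746 counts per base in a single library, where no gene of at least 500 bases exceeded 1.70. With that limit undone, the difference of Arg1 between iris and liver moved from -6.38 to -6.75 on the log2 scale and that of Cps1 from -7.32 to -7.57, and no call among the 8 genes was altered. Technical libraries of a sample had median coefficients of variation from 3.66% for Cps1 to 16.9% for Nags.

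The genes whose pattern was most like that of the 8 members were Gpt, Rida and Cyp2a12. Likeness was the Pearson r between a gene's deviations from the group means of log2(TPM + 1) and the mean deviation of the members over 16 samples, among 8520 genes with at least 10 TPM in liver. The r was 0.97, 0.97 and 0.96. TPM before iris correction were used, so the points share the iris share of each explant. Between pairs of the 8 members the median r was 0.71 over all 16 samples and 0.38 over the 11 without explants.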

How the data were processed

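Total RNA was sequenced by Smart-seq3. Per the submitters' processing notes, reads were aligned with TopHat2 to mm10, handled with SAMtools and counted with featureCounts, version 1.4.6-p5 in the file headers; the study also lists UMI-tools. The authors deposited counts per library and per sample, TPM, and iris-corrected TPM of the explants, a signal from which the authors had subtracted the iris contribution. The deposited sample counts equalled the sum of 3 libraries in 100% of cells. The 92 ERCC rows, 0.000586% of counts, were left out.

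In R 4.3.3, edgeR 4.0.16 tested the counts across all genes that its filter for low expression kept, with TMM scaling and the quasi-likelihood test, and limma 3.58.1 tested corrected TPM (trend, pseudocount 1, mean of at least 1 TPM). Alternatives used DESeq2 1.42.0 and limma-voom. Both tests were tried on simulated counts with 200 changed genes. No iris share was subtracted there, so the simulation does not cover the correction of the explants. The 8 genes and all lists were chosen with earlier results of these data known, and all 8 members are named. Some genes of the wider lists count in their totals and are not reported here by name. The strain on the labels differs from that listed in the paper. Depth was 2718518 to 6789648 counts per sample. Floors cover counting error only, and the 95% intervals of differences include the spread between samples. For corrected explants the intervals leave out the error of the iris shares and of the iris mean.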

Additional observations from a re-analysis of the deposited data

How the results depend on the processing

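The 8 counts of called genes were recalculated under alternatives that changed a single choice. Leaving out a sample gave 5 to 7 genes for explant against iris, 3 to 5 for spheroid against hepatocyte, 3 to 6 for spheroid against liver, 1 to 4 for corrected explant against liver, 1 to 3 against hepatocyte and 1 against spheroid. Where a group was left with 1 sample, it was assumed to vary like the others. Iris against liver stayed at 8 and hepatocyte against liver at 0.

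Without iris correction the counts were 8 against liver, 8 against hepatocyte and 6 against spheroid. These calls were lower in explants, whose iris shares were 59% to 82%. The 6 against spheroid did not include Otc, the gene called higher there with correction. The share of all genes called in these uncorrected fits is not given here. With the corrected values as deposited they were 1 against liver and 1 against hepatocyte. Iris shares by non-negative least squares gave 2 against liver, and scaling to reference genes gave 3 against liver, 1 against hepatocyte and 3 against spheroid. The causes were not tested beyond these constructions.

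The replicate numbers were not taken to pair the samples. Correlations of deviations were 0.07, 0.05 and 0.01 for hepatocyte against liver and below 0 for iris against liver, each with 3 pairs. With 2 pairs they were 0.16 for explant against spheroid, 0.13 for spheroid against liver and 0.09 for spheroid against hepatocyte. The other comparisons with 2 pairs lay from -0.04 to 0.01. With 2 pairs the deviations within a group mirror each other. Which number matches best then follows from the sign of r alone and cannot show a pairing. With the replicate block the counts were 7 for explant against iris, 8 for iris against liver, 0 for hepatocyte against liver, 4 for spheroid against hepatocyte, 5 for spheroid against liver, and 0, 1 and 0 for corrected explant against liver, hepatocyte and spheroid. The same samples without the pairing were an alternative chosen after seeing the data. They gave 6 for explant against iris, 3 for spheroid against hepatocyte, 4 for spheroid against liver and 0, 0 and 0 for the corrected explants. Whether the number of samples or the choice of samples lowered the counts was not tested.

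Directions that turned were those of differences not called at first. For hepatocyte against liver these were Nags (0.0037 in the fit of all groups, and -0.168 to 0.0672 with a sample left out), Arg1 (0.011 by DESeq2, 0.0076 without a filter, 0.0547 in the fit of all groups, and -0.12 to 0.213 with a sample left out), Slc25a15 (-0.024 by library size alone, and -0.0112 to 0.231 with a sample left out) and Slc25a13 (-0.0097 by library size alone). With a sample left out, Arg1 in spheroids ranged from -0.273 to 0.363 against hepatocyte and from -0.226 to 0.395 against liver, and Cps1 from -0.617 to 0.0423 against liver. For corrected explants, Ass1 turned to 0.0879 against liver and 0.229 against hepatocyte, and Arg1 to 0.0275 against hepatocyte, with the replicate block and without it over the same samples. Against spheroids Nags turned to 0.0402 by non-negative least squares, Ass1, Slc25a15 and Slc25a13 to -0.79, -1.17 and -1.23 without iris correction, Slc25a15 and Slc25a13 to -0.35 and -0.46 by reference genes, and Slc25a13 ranged from -0.475 to 0.693 with a sample left out. Of the 1047 alternative values of single genes, 938 kept direction and call. Depth limits Nags, which rests on 19 to 82 counts in explants.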
